A study of Mus musculus with 9 samples.

Results

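The genes of the cytosolic ribosome were examined in tumors grown from bEnd.3 cells in mice that received R-propranolol or vehicle. Members were chosen by symbol alone, as Rplp0, Rplp1, Rplp2, Rpsa and every Rpl or Rps symbol followed by a number and at most 1 letter (a, x or l), without annotated pseudogene symbols and the S6 kinases. This gave 81 of 24421 genes in the count table, 49 of the large (60S) subunit and 32 of the small (40S) subunit. The test could be run on 76 of them, 44 of the large and 32 of the small subunit, among 13901 genes tested. The members left out for low counts were Rpl10l, Rpl26, Rpl30, Rpl39l and Rpl3l.

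The R-propranolol group held 5 tumors and the vehicle group 4 tumors, with 1 library of paired 150-base reads for each. All came from flank allografts in athymic Nu/Nu nude male mice, which lack T cells but keep other host cells that a tumor can contain. R-propranolol was given intraperitoneally at 6 mg/kg per day, 5 times a week, and vehicle was ethanol diluted in DPBS. The sources used here do not give the ages of the mice, and the titles of vehicle replicates 1 and 2 share a number whose meaning is not given. bEnd.3 is a single line of mouse endothelial cells that carry the polyoma middle T antigen, a transforming driver that both groups share. All 10 endothelial markers were detected in every tumor, with summed levels of 487.6 to 951.1 CPM in the R-propranolol group and 465.6 to 597.5 CPM in the vehicle group. CPM are counts per 1000000 counts of the TMM-scaled library. Counts over genes ranged from 21084749 to 27852630 in the R-propranolol group and from 20599904 to 24949010 in the vehicle group. R-propranolol replicate 5 stood apart: RNA of 20 skeletal muscle genes made up 16.04% of that library, while the share in the other 8 tumors was 0.00102% to 0.0572%, and the 8 adipocyte markers summed to 5058 CPM there, against 118.0 to 429.3 CPM in the other 8. The main results are therefore also given without this tumor. Since these are bulk tissues, fewer cells of a type and less RNA per cell cannot be told apart.

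Ribosomal proteins are made in matched amounts and assembled with ribosomal RNA in the nucleolus into the small subunit, which decodes the message, and the large subunit, which joins amino acids. Most of their messages begin with a C followed by a run of pyrimidines, the terminal oligopyrimidine tract, through which the mTORC1 kinase and the protein Larp1 adjust their translation with growth. Because that control acts on translation, the amount of message and the amount of protein made need not move together. Ribosomal protein genes have left many processed pseudogenes in mammalian genomes, and reads that fit a gene and its copy equally well are left out by many counters. A few members have paralogs with restricted expression, such as Rpl3l in striated muscle and Rpl10l and Rpl39l in testis.

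To show what the start of these messages looks like in the genome, 30 bases of the RefSeq annotation on GRCm38.p6 are printed 5′ to 3′ for members described further on. Each line has 10 bases before the annotated start and 20 bases from it. Capitals mark a run of at least 5 pyrimidines that opens with C within 5 bases of the start, and the last 3 lines have no such run.
Rpl15, chr14:18270967-18270996, minus strand: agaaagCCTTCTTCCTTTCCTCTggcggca
Rpl13a, chr7:45128726-45128755, minus strand: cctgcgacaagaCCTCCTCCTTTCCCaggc
Rps6, chr4:86857348-86857377, minus strand: gaagtcgggCCTCTTTTTCgtgacgcctcc
Rplp2, chr7:141447641-141447670, plus strand: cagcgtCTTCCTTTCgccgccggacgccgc
Rpl38, chr11:114668570-114668599, plus strand: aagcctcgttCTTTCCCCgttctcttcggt
Rps27, chr3:90213629-90213658, minus strand: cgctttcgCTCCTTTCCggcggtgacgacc
Rpl11, chr4:136053374-136053403, minus strand: ccataaggccacggggccggaagtctccct
Rps28, chr17:33824543-33824572, minus strand: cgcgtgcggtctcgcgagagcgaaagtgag
Rpl3l, chr17:24727816-24727845, plus strand: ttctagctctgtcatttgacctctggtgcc
The RefSeq table had 72 promoter windows for 60 of the 81 members, and in 30 of these windows (41.7%), from 28 genes, the start carried such a run. Over all 32851 windows of the table the share was 18.3%. Rpl3l, the muscle paralog, had windows without a run, and so did Rpl11 and Rps28. The letters CGGAAG or their reverse complement CTTCCG, searched on both strands over 250 bases before to 50 bases after the start, were in 44 of the 72 member windows (61.1%) and in 16.9% of all windows. The second motif can overlap the end of a pyrimidine run of the first search, and it was chosen after the data had been seen. These matches describe the letters only, and the annotated start may differ from the one used in the tumors.

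No ribosomal protein gene was called different between R-propranolol and vehicle tumors. Of the 76 tested members, 0 fell below 0.05 after Benjamini-Hochberg adjustment of the quasi-likelihood p of edgeR, beside 0% of all genes tested, and the smallest adjusted p was 0.876 for members and for all genes. At an unadjusted p under 0.05 there were 0 members, while 2.30% of all genes tested were below it. The groups did not overlap for 0 members and for 1.26% of all genes. DESeq2 called 2 genes of the whole table at an adjusted p under 0.05 and 0 members, and at an unadjusted p under 0.05 it had 1 member, Rps4l, beside 656 of the 13131 genes to which it gave a p, or 5.0%. The labels do not say that every tumor came from a separate mouse, so the p-values measure the spread between these tumors only.

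The fitted differences were small and their intervals narrow. The log2 fold change of R-propranolol over vehicle lay under 0.5 in size for 75 of the 76 members, the exception being Rps4l. Its median was 0.09 over the members, 0.09 over large subunit members and 0.09 over small subunit members, beside 0.03 over all genes tested. The median standard error was 0.15 for members and 0.25 for all genes. The 95% interval lay within a 2-fold change in either direction for 74 members and within a 1.5-fold change for 65. For all genes tested, 61.2% had an interval inside 2-fold. Members with a higher mean in the R-propranolol tumors numbered 58 (33 of the large and 25 of the small subunit), or 76.3%, beside 54.3% of all genes, but when library size alone was used they numbered 20, or 26.3%, beside 35.8% of all genes. That change of scaling shifted the median of all genes by -0.13, and the median of the members relative to all genes was 0.06 under both scalings. Over the other alternatives this relative median ran from 0.010, with quality weights in limma-voom, to 0.12, without R-propranolol replicate 1.

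**Figure D1:**
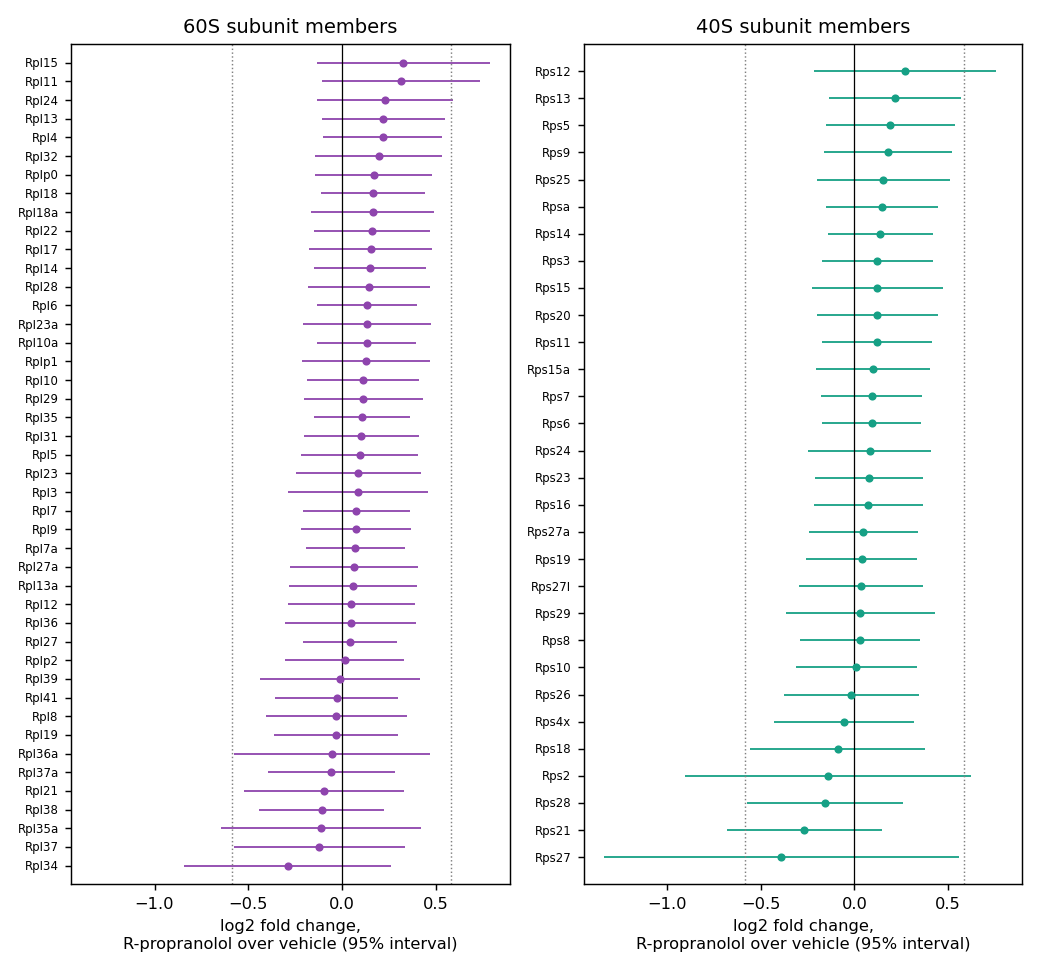
Fitted log2 fold change of R-propranolol over vehicle (horizontal axis) for 74 of the 76 tested members, with points for the estimate, bars for the 95% interval and dotted lines at a 1.5-fold change. All intervals drawn cover 0, and the widest belong to Rps27, Rps2 and Rpl34; Rps4l, at 2.18, is not drawn.

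Without R-propranolol replicate 5 the same 76 members could be tested, and the median log2 fold change was 0.08, beside 0.01 for all genes. The median standard error of the members was then 0.11, and 73 intervals lay inside 1.5-fold. There were 0 members at an unadjusted p under 0.05 (3.78% of all genes) and 0 whose groups did not overlap (2.86% of all genes). A higher mean in the R-propranolol group was found for 66 members, or 86.8%, beside 53.7% of all genes.

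The members shifted up or down together from tumor to tumor, in both groups. To describe this, each gene's log2 CPM was set against its mean over the 8 tumors other than R-propranolol replicate 5. In R-propranolol replicates 1 to 5 the median member deviated by -0.15, 0.19, 0.17, -0.06 and 0.10. In vehicle replicates 1 to 4 it deviated by -0.18, -0.10, 0.0039 and 0.12. Members above their mean numbered 1, 66, 73, 19 and 47 of 76 in the R-propranolol tumors, against 5, 1, 40 and 71 in the vehicle tumors. Low and high tumors thus occurred in both groups, and the group means of the median deviation were 0.05 ± 0.15 in the R-propranolol tumors (SD, n = 5) and -0.04 ± 0.13 in the vehicle tumors (SD, n = 4).

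**Figure D2:**
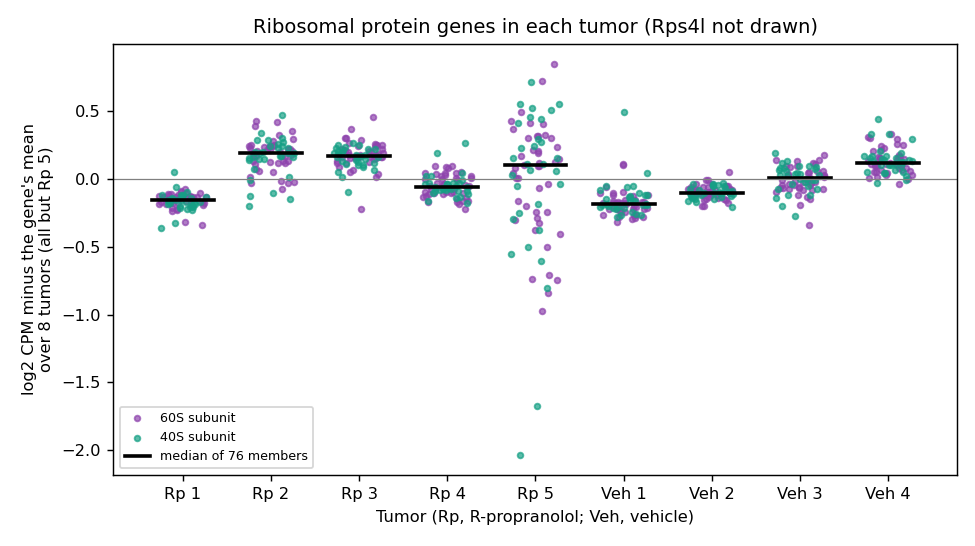
Deviation of log2 CPM from the gene's mean over 8 tumors (vertical axis) for 75 tested members in each of 5 R-propranolol (Rp) and 4 vehicle (Veh) tumors, colored by subunit; bars are medians of all 76. The clouds of Rp 2, Rp 3 and Veh 4 lie above 0 and those of Rp 1, Veh 1 and Veh 2 below it, while Rp 5 is spread much wider.

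As a share of all counts in genes, the 81 members made up 3.28%, 3.75%, 3.91%, 3.53% and 2.52% of the R-propranolol libraries, against 3.36%, 3.38%, 3.67% and 3.87% of the vehicle libraries. The means were 3.40 ± 0.54% (SD, n = 5) for R-propranolol and 3.57 ± 0.25% (SD, n = 4) for vehicle, a difference smaller than the SD of either group. The 95% Wilson interval of a share reached at most 0.00833 percentage points to either side, for counting error only. R-propranolol replicate 5 was the lowest of all 9 tumors. With the 20 skeletal muscle genes taken out of the total its share was 3.01%, and without that tumor the R-propranolol mean was 3.62 ± 0.27% (SD, n = 4). The summed counts of the large subunit over those of the small subunit were 1.40, 1.41, 1.42, 1.38 and 1.53 in the R-propranolol tumors, against 1.37, 1.39, 1.39 and 1.38 in the vehicle tumors. Replicate 5 was again the outlying tumor, and its muscle RNA was measured beside this ratio but its part in it was not tested.

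R-propranolol replicate 5 departed from the other tumors over the whole table, for members less often than for genes in general. It lay outside the range of the other 8 tumors for 47 of the 76 members, 26 above and 21 below. Over all genes tested the share was 78.6%. The 10th and 90th percentiles of its member deviations were -0.65 and 0.50, and the median size of the deviation was 0.30. These were not set beside the same values for all genes, so they do not single out the members. For Rps2, which lines the messenger entry channel of the small subunit, the level was 1409, 1349, 1619, 1675 and 459 CPM in the R-propranolol tumors, against 1420.1, 1436, 1282 and 1606 CPM in the vehicle tumors. Replicate 5 lay below every other tumor, at -1.68 from the mean of the others on the log2 scale. Its log2 fold change was -0.14 (standard error 0.34) with all tumors and 0.07 (standard error 0.11) without replicate 5. Also low in replicate 5, as log2 deviations, were Rps27 (-2.04, from 2 counts), Rpl35a (-0.98), Rpl34 (-0.84), Rps18 (-0.81), Rpl36a (-0.75), Rpl21 (-0.74) and Rpl37 (-0.71). High were Rps4l (3.38), Rpl15 (0.85), Rpl11 (0.72), Rps12 (0.72) and Rps13 (0.56). The share of reads with more than 1 place in the genome was 7.86% in this library, against 3.46% to 3.99% in the others, and the part of this share in the pattern was not tested.

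**Figure D3:**
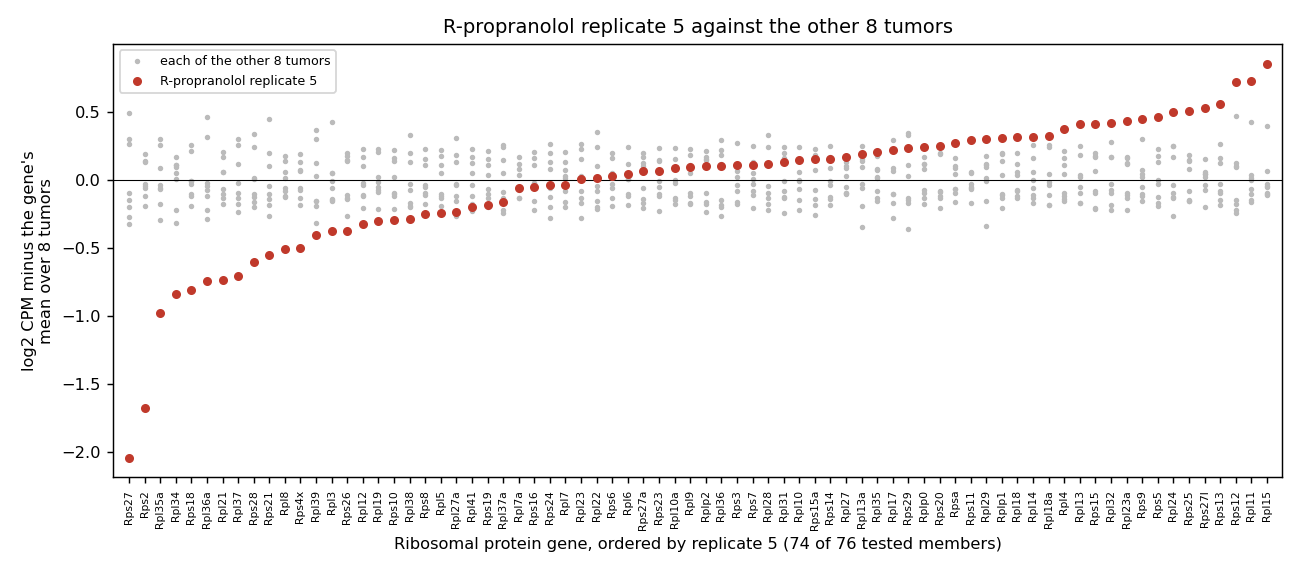
Deviation of log2 CPM from the gene's mean over the 8 other tumors (vertical axis) for 74 of the 76 tested members, with R-propranolol replicate 5 in red and the other 8 tumors in grey. Among the members drawn, replicate 5 runs from -2.04 for Rps27 and -1.68 for Rps2 to 0.85 for Rpl15, far beyond the grey points at both ends. Rps4l, at 3.38, is not drawn.

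The members with the smallest p at the higher end were Rps4l, Rpl11, Rpl15 and Rpl4. Rpl11, which with Rpl5 and 5S ribosomal RNA can bind Mdm2 and so stabilize p53, had 241, 363, 278, 270.2 and 447 CPM in the R-propranolol tumors, against 252, 245, 259 and 273 CPM in the vehicle tumors. Its fold change was 0.32 (standard error 0.19) on the log2 scale, and 0.16 without replicate 5. Rpl15, a core protein of the large subunit, had 195, 277, 221, 197 and 382 CPM in the R-propranolol tumors, against 197, 204, 203 and 207 CPM in the vehicle tumors. The 4 vehicle values were close together, and R-propranolol replicates 2, 3 and 5 lay above them. The log2 fold change of Rpl15 was 0.33 (standard error 0.20) with all tumors and 0.13 without replicate 5. Rpl4, which reaches into the exit tunnel for the growing peptide, had 733, 907, 877, 808 and 1016 CPM in the R-propranolol tumors, against 706, 722, 711 and 849 CPM in the vehicle tumors. All 5 R-propranolol values lay above 3 of the 4 vehicle values, and vehicle replicate 4 lay among them. The log2 fold change of Rpl4 was 0.22 (standard error 0.14), and 0.15 without replicate 5.

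At the lower end the smallest p belonged to Rps21, Rpl34, Rps27 and Rps28. Rps21, a small protein of the 40S subunit, had 447, 472, 545, 459 and 346 CPM in the R-propranolol tumors, against 421, 493, 580.5 and 689 CPM in the vehicle tumors. Vehicle replicates 3 and 4 held the highest values, the groups overlapped, and the log2 fold change was -0.27 (standard error 0.18). Rps28, at the messenger exit of the same subunit, had 367, 425, 498, 377 and 277 CPM in the R-propranolol tumors, against 387, 392.5, 422 and 531 CPM in the vehicle tumors, and its log2 fold change was -0.16 (standard error 0.18) and -0.06 without replicate 5. Rpl34 had 38, 47, 40, 41 and 14 counts in the R-propranolol tumors, against 42, 45, 45 and 38 counts in the vehicle tumors. Replicate 5 was the lowest tumor, and the log2 fold change was -0.29 (standard error 0.24) with it and -0.17 (standard error 0.20) without it.

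The stalk of the large subunit, which recruits the elongation factors, is built from Rplp0 and the acidic proteins Rplp1 and Rplp2, next to Rpl12. Rplp0 had 1095, 1267, 1311, 1237 and 1380.0 CPM in the R-propranolol tumors, against 1035, 1108, 1065 and 1267 CPM in the vehicle tumors, with a 95% interval of the log2 fold change from -0.14 to 0.48. Rplp1 had 747, 923, 919, 733 and 995 CPM in the R-propranolol tumors, against 699, 749, 826 and 884 CPM in the vehicle tumors, with an interval from -0.21 to 0.47. Rplp2 had 348, 475, 459, 367 and 439 CPM in the R-propranolol tumors, against 363, 384, 452 and 456 CPM in the vehicle tumors, with an interval from -0.31 to 0.33. The groups overlapped for each, and over the 4 stalk genes the log2 fold change ran from 0.01 to 0.17, above 0 for all 4 but for only 1 with library size alone. The sign of Rplp2 changed with library size alone and under other alternatives, and without replicate 5 the log2 fold changes were 0.13 for Rplp0, 0.07 for Rplp1 and -0.01 for Rplp2.

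Rpl5, the partner of Rpl11 in the 5S particle, averaged 545 ± 73.1 CPM in the R-propranolol tumors (SD, n = 5) and 509.8 ± 46.4 CPM in the vehicle tumors (SD, n = 4), and its log2 fold change was 0.10 (standard error 0.14) with all tumors and 0.15 without replicate 5. In R-propranolol replicate 5 Rpl5 was below and Rpl11 above all other tumors, with log2 deviations of -0.24 and 0.72. Near the exit tunnel, Rpl4, Rpl17, Rpl22, Rpl23a, Rpl31, Rpl35 and Rpl39 had log2 fold changes from -0.01 to 0.22, with 6 of these 7 above 0 (3 of 7 with library size alone). Rpl22, which can be lost without stopping translation and has a paralog in Rpl22l1, averaged 256.3 ± 40.5 CPM in the R-propranolol tumors (SD, n = 5) and 229 ± 21.2 CPM in the vehicle tumors (SD, n = 4). Rpl38, known from mice for its part in the translation of Hox messages, averaged 203 ± 26.6 CPM in the R-propranolol tumors (SD, n = 5) and 219 ± 38.9 CPM in the vehicle tumors (SD, n = 4). Rpl13a, which can leave the ribosome and silence inflammatory messages in human monocytes, averaged 471 ± 65.1 CPM in the R-propranolol tumors (SD, n = 5) and 453 ± 60.4 CPM in the vehicle tumors (SD, n = 4). None of these 4 pairs of means differed by more than the larger SD of its groups.

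On the small subunit, Rps6, the substrate of the S6 kinases and a common readout of mTORC1 activity as a phosphoprotein, had 421, 549, 536, 487 and 490.5 CPM in the R-propranolol tumors, against 460.4, 469, 437 and 498 CPM in the vehicle tumors. The RNA levels overlapped, and the interval of the log2 fold change ran from -0.17 to 0.36. Rpsa, also described as a laminin receptor precursor, had 849.7, 1016, 966, 936 and 1097 CPM in the R-propranolol tumors, against 811, 867, 865 and 973 CPM in the vehicle tumors, with an interval from -0.15 to 0.45. Rps3, which also takes part in DNA repair, averaged 756 ± 83.9 CPM in the R-propranolol tumors (SD, n = 5) and 694 ± 46.9 CPM in the vehicle tumors (SD, n = 4). Rps19, mutated in Diamond-Blackfan anemia in humans, averaged 452 ± 56.1 CPM in the R-propranolol tumors (SD, n = 5) and 439.8 ± 41.2 CPM in the vehicle tumors (SD, n = 4). Rps25, used by viral and cellular internal ribosome entry sites, averaged 327 ± 61 CPM in the R-propranolol tumors (SD, n = 5) and 293 ± 31.8 CPM in the vehicle tumors (SD, n = 4). Rps27a, made as a fusion with ubiquitin, averaged 356 ± 35.7 CPM in the R-propranolol tumors (SD, n = 5) and 344 ± 43.4 CPM in the vehicle tumors (SD, n = 4). The log2 fold changes of these 4 were 0.12 for Rps3, 0.04 for Rps19, 0.15 for Rps25 and 0.05 for Rps27a, with library size alone turning each below 0. Without replicate 5, which was above every other tumor for Rps25, they were 0.11 for Rps3, 0.08 for Rps19, 0.04 for Rps25 and 0.04 for Rps27a. The other 49 tested members, with mean levels from 28.4 to 1050.0 CPM, had log2 fold changes from -0.12 to 0.27, of which 39 were above 0 (13 with library size alone), with standard errors from 0.11 to 0.23.

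The paralogs showed the largest contrasts between single tumors. Rpl3l, the striated muscle counterpart of Rpl3, had 9, 7, 3, 2 and 7394 counts in the R-propranolol tumors, against 15, 2, 17 and 6 counts in the vehicle tumors. The gene lies on chromosome 17 (GRCm38, 24727820 to 24736143, plus strand), close to Rps2 on the same strand (24718116 to 24721929). Replicate 5 alone was high, at 491.7 CPM, which was 728.8 times the highest of the other 8 tumors. Rpl3, with 74.8% identical bases over the aligned transcripts, had 405, 603, 467, 447 and 347 CPM in the R-propranolol tumors, against 403, 409, 431 and 467 CPM in the vehicle tumors. Its level in replicate 5 was the lowest of the 9 tumors, and per kilobase Rpl3l made up 58.2% of Rpl3 and Rpl3l together there, against 0.0180% to 0.157% in the others. Rpl3l was left out of the main test for low counts in the other tumors. When all 19610 genes with a count were tested, it had 7.77 as its log2 fold change, with a standard error of 3.08 (edgeR, adjusted p = 0.780). All 20 skeletal muscle genes were detected in replicate 5, with a summed 224900 CPM against 10.2 to 521.1 CPM in the others, and their part in the Rpl3l level was not tested.

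Rps4l, which GENCODE lists as a transcribed processed pseudogene on chromosome 6, had 27, 263, 20, 27 and 199 counts in the R-propranolol tumors, against 40, 16, 49 and 8 counts in the vehicle tumors. R-propranolol replicates 2 and 5 were high, and the other 3 lay within the range of the vehicle tumors. Its mean was 5.31 ± 6.08 CPM in the R-propranolol tumors (SD, n = 5) and 1.17 ± 0.782 CPM in the vehicle tumors (SD, n = 4). The log2 fold change was 2.18 (standard error 1.06), with an interval from -0.22 to 4.57 and 0.876 as the adjusted p of edgeR. It was 1.77 without replicate 2 and 1.49 without replicate 5. With quality weights on the tumors in limma-voom the value was 0.28. The parent-like gene Rps4x, with 80.1% identical bases, had 754, 871, 947, 796 and 585 CPM in the R-propranolol tumors, against 727, 788, 865 and 905.97 CPM in the vehicle tumors, and the groups overlapped. Replicates 2 and 5 also had the highest summed levels of the 6 fibroblast markers, 31170 and 15490 CPM, against 5216 to 8450 CPM in the other 7 tumors. The 8 macrophage markers summed to 2892 and 3566 CPM in these tumors, against 648.3 to 1938 CPM in the others, with 0 markers of either list at 0. The 10 endothelial markers were also highest in these tumors, at 951.1 and 759.5 CPM, against 465.6 to 616.1 CPM in the others. The part of any of these cell types in the Rps4l level was not tested.

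Rpl39l had 0, 15, 3, 4 and 22 counts in the R-propranolol tumors, against 1, 1, 12 and 0 counts in the vehicle tumors, with the highest counts in R-propranolol replicates 5 and 2 and in vehicle replicate 3. Its somatic counterpart Rpl39 averaged 265 ± 56.8 CPM in the R-propranolol tumors (SD, n = 5) and 267 ± 50.1 CPM in the vehicle tumors (SD, n = 4). Rpl10l had 0 counts in all 9 tumors, which allows up to 0.106 to 0.189 CPM per tumor (3 counts, counting error only), while Rpl10 had 624, 774, 730.0, 592 and 726 CPM in the R-propranolol tumors, against 561, 651, 655 and 681 CPM in the vehicle tumors. Rps27l, a paralog induced by p53, had 74, 62.2, 72.2, 67.8 and 103 CPM in the R-propranolol tumors, against 73.5, 69.4, 73.6 and 79.3 CPM in the vehicle tumors, and replicate 5 was the highest tumor. Rps27 itself had only 13, 13, 15, 17 and 2 counts in the R-propranolol tumors, against 19, 13, 12 and 15 counts in the vehicle tumors, with -0.39 (standard error 0.42) as the log2 fold change and -0.18 (standard error 0.30) without replicate 5, which had 2 counts.

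**Figure D4:**
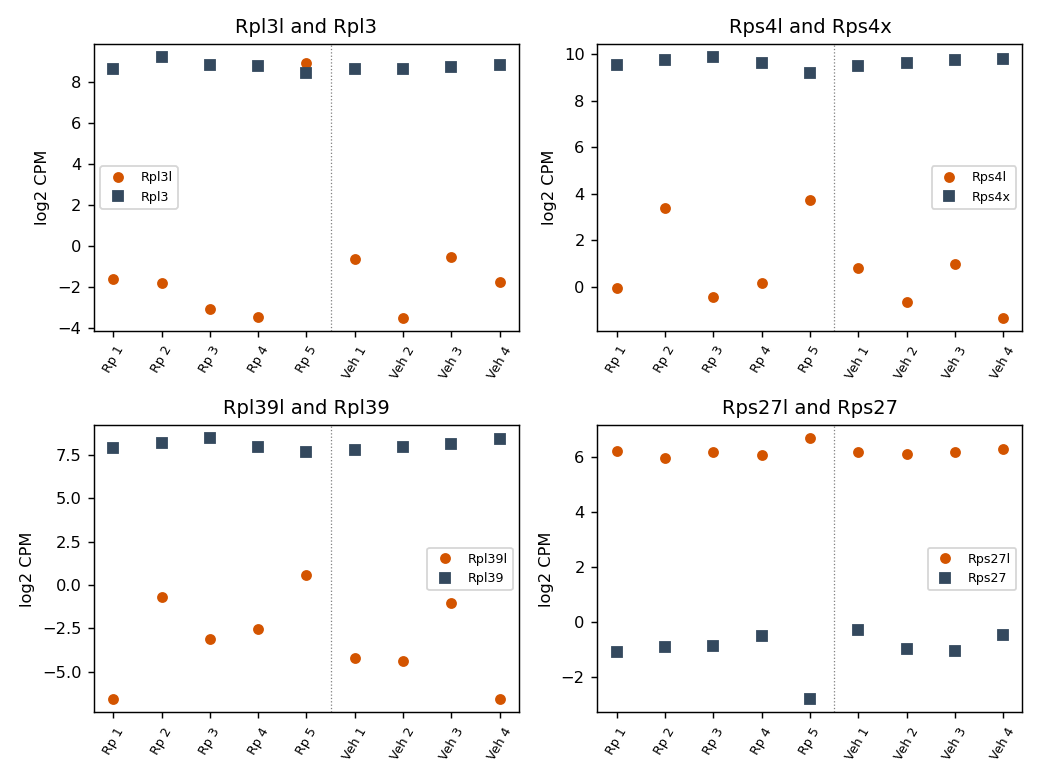
Log2 CPM (prior count 0.25, vertical axis) of 4 paralogs and their main genes in each of 5 R-propranolol (Rp) and 4 vehicle (Veh) tumors, divided by the dotted line. Rpl3l reaches the level of Rpl3 only in Rp 5, Rps4l is high in Rp 2 and Rp 5, and Rps27l lies above Rps27 in all 9 tumors. Rps27 had only 2 to 19 counts per tumor, and 98.4% of its 100-base windows also occur in another gene. Whether its counts follow its RNA was not tested.

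The count of a member can also depend on how much of its message is unique. For each member, the share of 100-base windows of its transcript that occur on either strand in a transcript of another gene was computed from GENCODE M21. It was 0 for 9 members and over 50% for 35. The share also counts exons that overlap another gene at the same place, such as 953 bases of Rpl5 that overlap Fam69a on the other strand. It therefore does not measure duplicated sequence alone. The median level per kilobase of transcript was 591.0 CPM for members with over 50% shared and 525.1 CPM for the rest. Spearman's rho between share and level over the 81 members was 0.12, a description across genes that are not independent. The 81 include Rpl10l, Rpl39l, Rpl3l and Rps4l, with 0 to 2.03% shared and only 0 to 39.9 CPM per kilobase. Such rows weigh on the medians and on rho, which therefore cannot show whether shared sequence lowers a count. Rps27 had the largest share among the members with few reads: 98.4% of its windows also occur in Gm17241 or Rps27rt, and its mean level was 1.56 CPM per kilobase. Rpl29 (48.8 CPM per kilobase, 62% shared) and Rpl30 (0.361 CPM per kilobase, 53.5% shared) were low as well. Rpl34 (3.33 CPM per kilobase, 31% shared) and Rpl26 (0 counts in every tumor, 36.8% shared) were low although most of their windows were not shared. Cells build these proteins into their ribosomes, and whether the counts of Rpl26, Rpl30, Rpl34 and Rps27 follow their RNA was not tested. The highest levels per kilobase were those of Rplp1 (1664 CPM), Rps28 (1507 CPM) and Rps2 (1365 CPM), and 72 members lay between 115.5 and 1664 CPM per kilobase. These values use the annotated length of 1 transcript per gene, so a long annotated end lowers the level, as for Rps20.

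**Figure D5:**
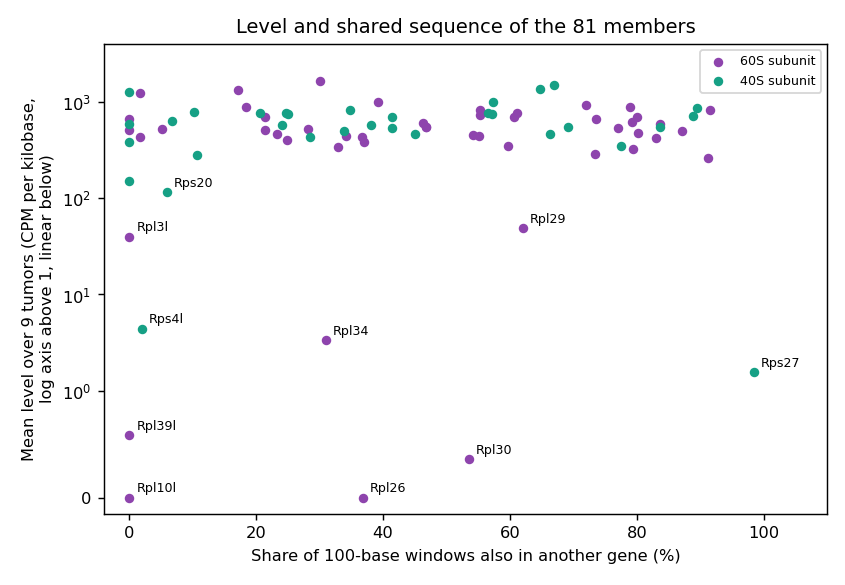
Mean level over 9 tumors per kilobase of transcript (vertical axis, logarithmic above 1 and linear below) against the share of 100-base windows that also occur in another gene (horizontal axis) for the 81 members. The 9 members under 100 CPM per kilobase are labelled, with Rps20 just above them, and they occur across the whole range of shares.

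Genes that work with the members were read from the same fit, as lists chosen by function. Of all genes tested, 54.3% were above 0, and 35.8% with library size alone. The counts above 0 in each list are a description without a test, since genes of a list can move together between tumors. Ribosomal proteins whose symbols the rule does not cover had 0 of 7 tested genes called and 5 above 0, also with library size alone, with a median log2 fold change of 0.18, and 0.04 without replicate 5. Rps3a1, a 40S protein, had the smallest p, with 162, 266, 188, 203 and 601 CPM in the R-propranolol tumors, against 192, 167, 164 and 186 CPM in the vehicle tumors. Its log2 fold change was 0.68 (standard error 0.38) with replicate 5 and 0.21 without it. The next list held mainly translation factors, and also Hnrnpa1, Tpt1, Naca and Btf3, chosen as genes whose messages start with a pyrimidine tract. Their starts were not checked here. This list had 0 of 17 called and 8 above 0 (5 with library size alone), with a median of -0.01, and 0.07 without replicate 5. Eef1g, a subunit of elongation factor 1, had the smallest p, at 0.48 on the log2 scale (standard error 0.25) and 0.23 without replicate 5.

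Host RNAs of small nucleolar RNAs, which guide modification of ribosomal RNA, had 0 of 7 called and 0 above 0 under both scalings, with a median of -0.13 and -0.03 without replicate 5. Snhg6 had the smallest p among them, with -0.28 (standard error 0.23) as its log2 fold change and -0.15 without replicate 5. Genes of ribosome biogenesis, such as the RNA polymerase I subunits and nucleolar processing factors, had 0 of 47 called and 9 above 0 (2 with library size alone), with a median of -0.13 and -0.04 without replicate 5. Nhp2, a core protein of box H/ACA particles, averaged 88.3 ± 23.0 CPM in the R-propranolol tumors (SD, n = 5) and 106 ± 8.999 CPM in the vehicle tumors (SD, n = 4), and its log2 fold change was -0.26 with all tumors and -0.13 without replicate 5. Without replicate 5, Nop10, its partner in the same particles, was the 1 gene of the list at an unadjusted p under 0.05 in edgeR's test, at -0.30, or 1 of 47 beside 3.78% of all genes. Genes of mTORC1, the S6 kinases and the Myc network had 0 of 23 called and 18 above 0 (9 with library size alone). Their median was 0.13, which was 0.05 without replicate 5 and -0.02 with library size alone. This list mixes genes that promote and genes that oppose these pathways, so its count and median give no direction of a pathway. Eif4ebp1, the translation repressor that mTORC1 inactivates, averaged 139 ± 45.4 CPM in the R-propranolol tumors (SD, n = 5) and 110 ± 8.62 CPM in the vehicle tumors (SD, n = 4), and its log2 fold change was 0.34 with all tumors and 0.13 without replicate 5. Mxi1, a Max partner that opposes Myc, had 0.28 with all tumors and 0.38 without replicate 5, where it was the 1 gene of its list of 23 at an unadjusted p under 0.05, again beside 3.78% of all genes. For all 5 lists together 0 genes passed the adjusted threshold.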

How the data were processed

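RNA was measured in 5 R-propranolol and 4 vehicle tumors. The authors aligned the reads to mm10 with STAR and counted them per gene symbol with HTSeq, and the deposited values are raw counts per gene, without normalization. The sources used here do not give the annotation, the strand setting or any version. HTSeq leaves out reads with several places by default, which can lower the counts of genes with near-identical copies, and this was not tested.

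Members and lists were chosen with earlier results of these data known. edgeR 4.0.16 in R 4.3.3 was fitted over all genes with filterByExpr (minimum count 10, minimum total 15) and TMM scaling, and its quasi-likelihood p was adjusted by Benjamini-Hochberg. Log2 CPM used a prior count of 0.25. Standard errors were derived from the F statistic, and 95% intervals from the t distribution with the moderated degrees of freedom. Floors of 3 counts and Wilson intervals of shares cover counting error only. The fit was also run on simulated data that held no tumor like R-propranolol replicate 5, so that check does not cover the effect of such a tumor.

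Named members were the 4 smallest p in each direction, the paralog pairs, members with well known roles, and the 3 highest and 3 lowest tested members per kilobase. From each list the gene with the smallest p and genes under 0.05 were named. Nop10 and Mxi1 were named after their values without replicate 5 had been seen, as were members named for their deviation in that tumor or for low counts. Transcripts and places are from GENCODE M21 (GRCm38), with 1 transcript per gene, and promoters from RefSeq (GRCm38.p6). Protein sequences were not used here, and 1 member is not reported by name.

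Alternatives were the size factors of DESeq2, library size alone, DESeq2 1.42.0, voom of limma 3.58.1 with quality weights, no filter or one of 1 CPM in 4 tumors, a block by replicate number, the sum of vehicle replicates 1 and 2 as 1 sample, and each tumor left out.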

Additional observations from a re-analysis of the deposited data

Results flagged for a closer look

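The spread of each named member's log2 CPM, of the member share of counts, of the ratio of large to small subunit counts and of the median deviation was examined within the R-propranolol group (5 tumors) and the vehicle group (4 tumors). A tumor was listed where its gap to the nearest tumor took up most of the group's range, by Dixon's 95% critical value. Of 64 groups of values, 7 were listed, and chance alone lists about 1 in 20.

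R-propranolol replicate 5 was listed 4 times. Its log2 CPM of Rpl3l was 8.94, with the next tumor at -1.61, its log2 CPM of Rps2 was 8.84, with the next at 10.40, and its log2 CPM of Rps27, from 2 counts, was -2.80, with the next at -1.09. Its ratio of large to small subunit counts was 1.53, with the next at 1.42. R-propranolol replicate 1 was low for Rpl13a at 8.48, with the next at 8.92. In the vehicle group, replicate 4 was high for Rpl4 at 9.73, with the next at 9.50, and replicate 1 had a ratio of large to small subunit counts of 1.37, with the other 3 close together from 1.38.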

How the results depend on the processing

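Under all 17 alternatives 0 members passed the adjusted threshold, and the same held for the genes of the 5 lists. The smallest adjusted p of a member was 0.660, without R-propranolol replicate 4. At an unadjusted p under 0.05 there was 1 of 79 members with no filter (Rpl3l), beside 626 of 19610 genes. With DESeq2 there was 1 member (Rps4l), beside 656 of 13131 genes. When 1 tumor was left out there were 0 to 1 members (Rps4l, without R-propranolol replicate 1 or 3). Among all genes tested, any alternative had at most 838 at this threshold. Members with a higher mean numbered 20 of 76 with library size alone, or 26.3%, beside 35.8% of all genes. Their median log2 fold change was then -0.045. When 1 tumor was left out, 53 to 69 of 76 to 78 tested members were higher, with medians from 0.049 to 0.14. That was 69.7% to 88.5% of members, beside 51% to 55.3% of all genes. With quality weights in limma-voom, 43 members were higher, or 56.6%, beside 48.9% of all genes, and the median was 0.0070. The difference in the share of counts, R-propranolol minus vehicle, was -0.17 percentage points, -0.074 without skeletal muscle genes in the total, and -0.30 to 0.049 when 1 tumor was left out, the positive value being the one without R-propranolol replicate 5.

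Of 458 log2 fold changes of the 27 named members under the alternatives, 43 changed sign, and 11 members kept their sign in every alternative that gave them a value; Rps27 had none with the filter of 1 CPM. With library size alone the values were -0.027 for Rpl10, -0.084 for Rpl13a, -0.034 for Rpl3, -0.026 for Rpl5, -0.019 for Rplp1, -0.13 for Rplp2, -0.088 for Rps19, -0.0046 for Rps25, -0.090 for Rps27a, -0.13 for Rps27l, -0.016 for Rps3 and -0.044 for Rps6. With limma-voom they were -0.11 for Rpl13a, 0.0052 for Rpl39, -0.097 for Rplp2, 0.049 for Rps2, -0.014 for Rps27a, -0.015 for Rps27l and -0.018 for Rps6. Rplp2 was at -0.0050 with no filter and at -0.022 with vehicle replicates 1 and 2 summed. When 1 tumor was left out, Rpl13a ran from -0.0027 to 0.15, Rpl3 from -0.034 to 0.17, Rpl38 from -0.18 to 0.00046, Rpl39 from -0.11 to 0.11, Rplp2 from -0.033 to 0.075, Rps19 from -0.0037 to 0.086, Rps2 from -0.25 to 0.074, Rps27l from -0.10 to 0.10 and Rps4x from -0.12 to 0.033. The cause of these changes of sign was not tested.

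Same-numbered tumors of the 2 groups deviated with correlations of -0.28, 0.088, -0.64 and 0.53 over genes, so the numbers were not taken as pairs. A replicate block gives R-propranolol replicate 5 no partner and no weight in the comparison. With it 66 members were higher, or 86.8%, beside 51.7% of all genes. The median was 0.078, with 0.071 for Rpl39, -0.011 for Rplp2, 0.074 for Rps2, -0.10 for Rps27l, 0.035 for Rps4x and 0.68 for Rps4l. Low counts limit Rps27, Rpl34 and Rpl39l, where single reads weigh in each value.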

Other observations

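Some annotated copies of ribosomal protein genes have counts of their own. Among those with -ps in the symbol and Rpl37rt, 3 were lowest in R-propranolol replicate 5 also as CPM, while Rpl14-ps1, Rpl31-ps12 and Rps15a-ps4 were not. Copies under other symbols, such as Gm6654, were left out of this count. Rps15a-ps6 had 274, 183, 365, 206 and 19 counts in the R-propranolol tumors, against 144, 211, 267 and 215 counts in the vehicle tumors, and its level was 1.26 CPM in replicate 5, against 6.20 to 13.1 CPM in the other 8. Rps19-ps3 had 105, 85, 131, 78 and 24 counts in the R-propranolol tumors, against 74, 126, 131 and 86 counts in the vehicle tumors, with 1.60 CPM in replicate 5, against 3.19 to 5.20 CPM in the other 8. Rpl37rt, a retrocopy of Rpl37, had 147, 159, 232, 176 and 72 counts in the R-propranolol tumors, against 160, 151, 156 and 202 counts in the vehicle tumors. As CPM it was 4.79 in replicate 5, close to the 5.19 of R-propranolol replicate 1, and Rpl37 itself was low in replicate 5. Rpl14-ps1 was at 2.26 CPM in replicate 5, against 1.64 to 3.12 CPM in the others. Rps27rt had 0 counts in all 9 tumors, as did Rplp2-ps1 and Rpl34-ps1. These rows were picked after their values had been seen, and no test was run on them.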
